A study of Mus musculus with 6 samples.

Results

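Transcript levels of 32 genes that mark Schwann cells and other neural crest glia, melanoblasts, nerves and Merkel cells were examined in mouse embryonic handpads lacking Grhl3. The set was taken by gene name, as 11 glial genes, 7 melanoblast genes, 13 nerve genes and 1 Merkel cell gene, Atoh1, and it holds 32 of the 34989 genes measured. RNA was sequenced from 3 Grhl3KO and 3 WT handpads, the flattened distal part of the embryonic forelimb, of C57BL/6 embryos at E14.5. Grhl3 encodes an epithelial transcription factor, and the Grhl3KO embryos carry the genotype that the design text writes as Grhl3-/-. The labels do not name the deleted part of the gene, and they do not say whether a library came from 1 embryo or from a pool. P-values therefore measure the spread between these libraries, which may be technical in part. The series asked how handpads without Grhl3 differ from controls during digit separation.

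Schwann cells are the glia that wrap peripheral axons, and their precursors travel along growing nerves. Melanoblasts are the precursors of pigment cells, and both cell types come from the neural crest; in mouse, part of the melanoblasts arise from Schwann cell precursors on nerves of the skin. MITF is the transcription factor that turns on the pigment enzyme genes Tyr, Tyrp1 and Dct, and SOX10 acts upstream of it. Sensory and motor axons reach the limb from cell bodies that lie outside it, so a handpad holds axons, glia and the RNA carried in axons. Merkel cells are touch receptor cells of the epidermis whose formation requires Atoh1.

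The promoters of Dct, Tyr and Tyrp1 and the downstream promoter of Mitf are shown because the values of these MITF targets, and of the Mitf start that pigment cells use, are described below. RefSeq promoter windows of 300 bases, from 250 bases before to 50 bases after a gene's start, were matched for 19 of the 32 genes, with 29 windows in all, on build GRCm38.p6. Capitals mark the E-box core CATGTG, which MITF binds, and the SOX core ACAAAG, both searched on both strands. The windows are Dct at chr14:118052197-118052496 on the minus strand, Tyr at chr7:87493463-87493762 on the minus strand, Tyrp1 at chr4:80833963-80834262 on the plus strand, and Mitf at chr6:97991533-97991832 on the plus strand.
Dct: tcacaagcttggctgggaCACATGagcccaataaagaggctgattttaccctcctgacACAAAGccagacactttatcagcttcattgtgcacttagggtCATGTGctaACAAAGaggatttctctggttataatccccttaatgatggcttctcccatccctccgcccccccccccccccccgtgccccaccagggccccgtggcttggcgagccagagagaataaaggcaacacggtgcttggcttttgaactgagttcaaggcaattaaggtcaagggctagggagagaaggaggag
Tyr: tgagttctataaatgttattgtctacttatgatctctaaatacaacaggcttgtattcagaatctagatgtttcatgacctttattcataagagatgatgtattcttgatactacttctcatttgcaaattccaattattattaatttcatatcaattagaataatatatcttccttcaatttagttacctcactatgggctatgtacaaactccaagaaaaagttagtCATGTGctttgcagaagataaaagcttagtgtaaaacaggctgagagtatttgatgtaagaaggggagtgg
Tyrp1: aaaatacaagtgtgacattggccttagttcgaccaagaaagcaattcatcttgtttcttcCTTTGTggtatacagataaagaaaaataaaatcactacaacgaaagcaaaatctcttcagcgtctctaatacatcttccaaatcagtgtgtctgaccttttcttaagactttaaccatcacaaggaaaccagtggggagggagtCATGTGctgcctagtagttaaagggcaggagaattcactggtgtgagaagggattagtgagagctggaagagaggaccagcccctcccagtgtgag
Mitf, downstream start: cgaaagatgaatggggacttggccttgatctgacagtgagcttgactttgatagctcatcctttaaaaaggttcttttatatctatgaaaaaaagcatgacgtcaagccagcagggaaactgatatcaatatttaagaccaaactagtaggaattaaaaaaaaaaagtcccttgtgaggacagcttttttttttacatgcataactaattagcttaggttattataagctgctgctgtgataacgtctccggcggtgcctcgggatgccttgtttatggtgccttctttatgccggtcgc

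The Tyr window held CATGTG at position -21 from the start and the Tyrp1 window held it at position -46. The Dct window held CATGTG at position -150 and its reverse complement at -232, with ACAAAG at -192 and -141. Tyrp1 also held the reverse complement of ACAAAG at -190. The Mitf window held neither. Among the 19 matched genes, the only other member with a match was Sox2, with the reverse complement of CATGTG at -5 and ACAAAG at -206. Among all 32851 promoter windows, CATGTG on either strand was present in 14.15% and ACAAAG in 18.71%. A match is a run of letters and not a bound site. Pmel, Mlana, Ret, Gap43, Gfra3, Nefm, Nefl, Cdh19, Stmn2, Erbb3, Sox10, Mbp and Ncam1 were not matched.

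The libraries held 47642524 to 56037639 estimated counts in Grhl3KO and 38052692 to 48984542 in WT. Grhl3, the targeted gene, had 2.86 to 3.11 depth-scaled counts (CPM, counts scaled to a common library size) in Grhl3KO and 14.3 to 45.7 CPM in WT, and it fell by 3.14 on the log2 scale (edgeR FDR 0.0221). The call was lost when any 1 Grhl3KO library or WT replicate 3 was left out, with FDR of 0.0759 to 0.162, and with limma-voom, with an FDR of 0.0743. The log2 fold change lay between -3.43 and -2.47 over all alternatives. WT replicate 1 stood apart. Ribosomal protein genes took 7.61% to 8.21% of the counts in Grhl3KO, and 9.44%, 5.98% and 6.63% in WT replicates 1, 2 and 3. The mean correlation with the other libraries was 0.988 to 0.989 in Grhl3KO, and 0.984, 0.987 and 0.986 in WT replicates 1, 2 and 3. The 4 Y-linked genes examined summed to 3.372 to 4.399 CPM in Grhl3KO, and to 5.34, 288 and 339 CPM in WT replicates 1, 2 and 3. The labels do not give embryo sex. Among the WT libraries only replicate 1 was near the Grhl3KO values. In the full comparison, genotype and embryo sex are therefore separated only by WT replicate 1. Without WT replicate 1, genotype and embryo sex cannot be told apart.

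No member passed the test. Of 16938 genes tested with edgeR's quasi-likelihood test, 73 passed a false discovery rate (FDR) under 0.05, which is 0.431% (0.348% higher and 0.0827% lower in Grhl3KO), and 0 of the 30 members tested were among them. DESeq2 and edgeR's likelihood ratio test each called 1 member, Pmel. At an unadjusted p under 0.05, 4 members were higher in Grhl3KO (Pmel, Kit, Ngfr and Ret) and 0 were lower, 13.3% of the members. Of all genes, 7.22% were at such a p, 3.81% higher and 3.41% lower. The values of the 3 Grhl3KO libraries did not overlap those of WT for 6 members, or 20% of them. Pmel, Kit, Ngfr, Mbp and Ret lay above WT and Elavl4 lay below. Of all genes, 12.9% did not overlap, 6.77% above WT and 6.16% below. On the TPM scale 5 of these 6 overlapped, and Ret alone of them did not. Over all members, 4 did not overlap in TPM. Ret, Foxd3 and Fabp7 lay above WT, and Pmp22 lay below. The share of all genes that did not overlap was not computed in TPM. The median log2 fold change was 0.25 over the 30 members, with 22 positive and 8 negative, and -0.004 over all genes tested. Leaving out Grhl3KO replicate 3 moved the members' median to 0.02, with 16 of 30 positive.

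**Figure D1:**
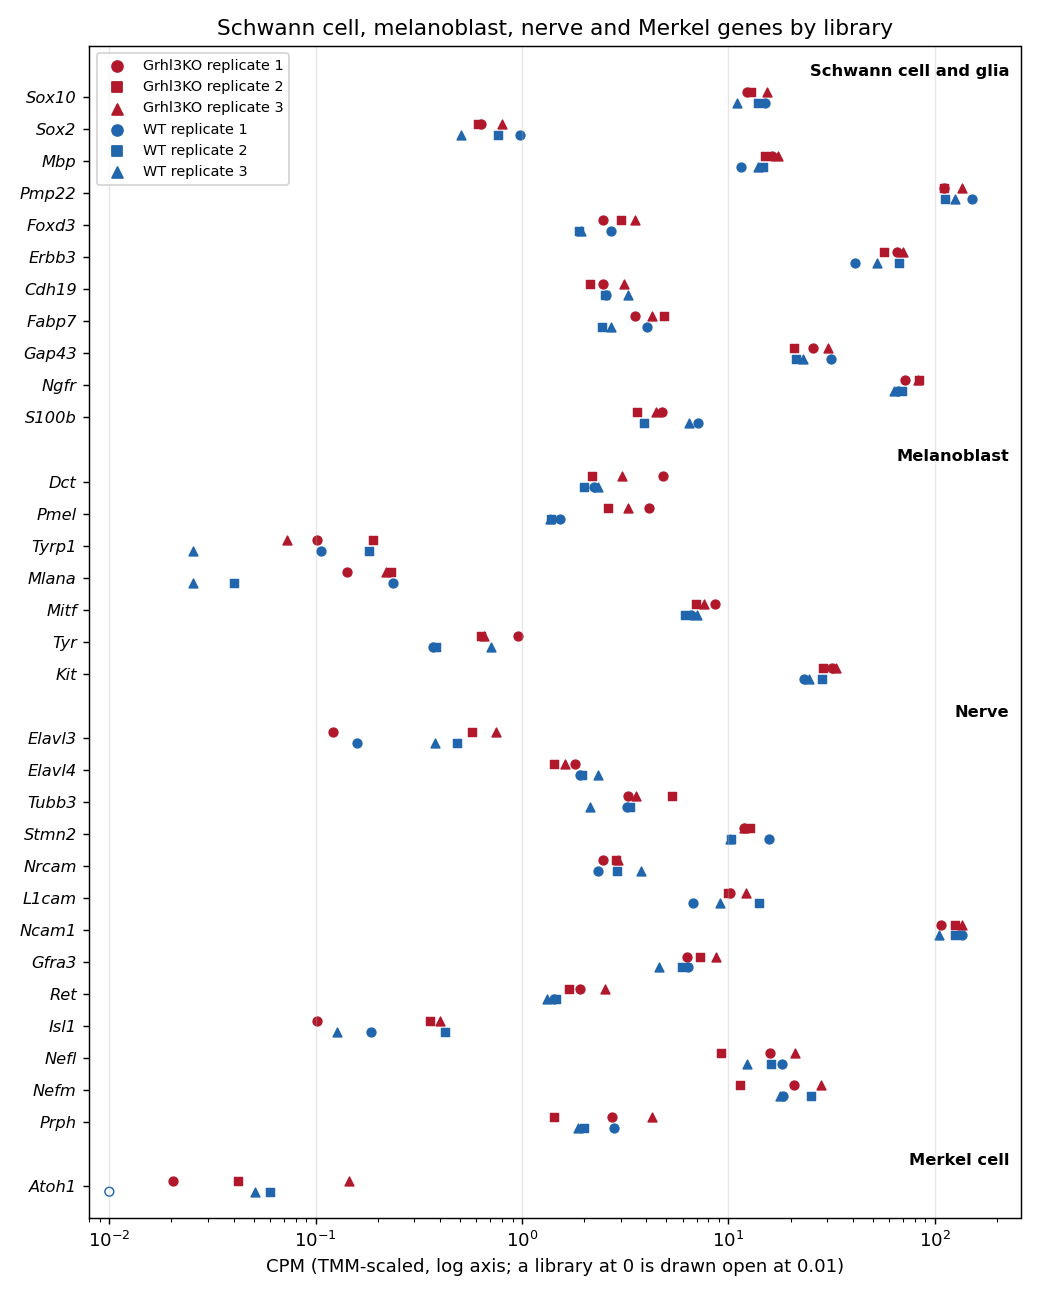
CPM of the 32 genes in each library on a log axis, with the Grhl3KO libraries in red above the WT libraries in blue and marker shapes for replicate numbers. On this CPM scale groups separate without overlap only for Pmel, Kit, Ngfr, Mbp, Ret and Elavl4.

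The members spanned a wide range of levels per length. On the TPM scale, a length-corrected share of the library, 5 members averaged over 10 TPM across the 6 libraries, 17 lay between 1 and 10 TPM, and 10 were under 1 TPM. The 5 highest were Pmp22 at 92.8, Gap43 at 26.4, Ngfr at 24.6, Ncam1 at 22.9 and Erbb3 at 10.8 TPM. The lowest were Tyrp1 at 0.169, Elavl3 at 0.102 and Atoh1 at 0.032 TPM. Gap43, Ngfr and Ncam1 are neighbours in this order whose library ranges overlap. In bulk tissue, fewer cells of a type and less RNA per cell cannot be told apart, and this holds for every level below.

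Glial genes were close to their WT levels as a group. The 11 glial genes had a median log2 fold change of 0.03, with 7 positive and 4 negative, and 1 of them (Ngfr) was at an unadjusted p under 0.05. Sox10, the transcription factor that defines the neural crest glial lineage, had 12.3, 12.8 and 15.3 CPM in Grhl3KO, against 15.1, 13.9 and 11.03 CPM in WT. The groups overlapped, and the log2 fold change was 0.02 with a 95% interval of -0.34 to 0.37. The values leave room for a Sox10 difference of either sign within those bounds. The interval is not adjusted for the number of genes tested, and it is not a limit of detection.

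Receptors of the glial lineage differed in their values. Ngfr encodes the low-affinity neurotrophin receptor p75, which is also made by mesenchyme and sensory axons. It had 71.9, 83.7 and 82.7 CPM in Grhl3KO, against 66.0, 68.9 and 63.7 CPM in WT, so each Grhl3KO library lay above each WT library. The log2 fold change was 0.26 ± 0.09 (SE, n = 3 libraries per group), with an edgeR FDR of 0.493. Erbb3, the neuregulin receptor that Schwann cell precursors need to survive, had 65.4, 56.7 and 70.4 CPM in Grhl3KO, against 41.0, 66.9 and 52.5 CPM in WT. These overlapped, because WT replicate 2 was as high as the Grhl3KO libraries (log2 fold change 0.26, edgeR FDR 0.876).

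Genes of early neural crest and immature glia had fold changes of both signs, and none passed the test. Foxd3, a neural crest transcription factor, had 2.48, 3.01 and 3.53 CPM in Grhl3KO, against 2.69, 1.89 and 1.92 CPM in WT, a log2 fold change of 0.47 (edgeR FDR 0.770). Fabp7, a fatty acid binding protein of Schwann cell precursors, had 3.53, 4.84 and 4.24 CPM in Grhl3KO, against 4.02, 2.45 and 2.71 CPM in WT, a log2 fold change of 0.46 (edgeR FDR 0.785). In both genes WT replicate 1 was the highest WT library and overlapped Grhl3KO in CPM. In TPM, which has no test, neither gene overlapped. Foxd3 had 1.34 to 1.78 TPM in Grhl3KO and 1.13 to 1.26 TPM in WT. Fabp7 had 9.49 to 12.7 TPM in Grhl3KO and 7.42 to 8.97 TPM in WT. Without WT replicate 1, both were among the 6 members at an unadjusted p under 0.05, when 17.4% of all genes were. Cdh19, a cadherin of Schwann cell precursors, averaged 2.57 ± 0.50 CPM in Grhl3KO and 2.78 ± 0.42 CPM in WT (SD, n = 3 each). Sox2, a factor of immature glia that also marks Merkel cells, averaged 0.680 ± 0.105 CPM in Grhl3KO and 0.749 ± 0.236 CPM in WT (SD, n = 3 each).

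Genes of later Schwann cells went in both directions. S100b, a calcium binding protein of Schwann cells that cartilage also makes, had 4.75, 3.62 and 4.46 CPM in Grhl3KO, against 7.13, 3.91 and 6.40 CPM in WT. It had the lowest fold change of the members, -0.44 on the log2 scale (edgeR FDR 0.805). WT replicate 2 lay within the Grhl3KO values, and without it S100b reached an unadjusted p under 0.05, as did 7.62% of all genes. Of the 10 cartilage genes examined beside it, all had negative fold changes, with a median of -0.50, 0 called by edgeR and 3 at an unadjusted p under 0.05, and their summed level was 665 to 1052 TPM in Grhl3KO and 1041 to 1743 TPM in WT. The part of cartilage in the S100b value was not tested. Pmp22, a myelin protein that mesenchyme also expresses, had 111, 111 and 136 CPM in Grhl3KO, against 151, 112 and 125 CPM in WT. In TPM, which has no test, its Grhl3KO libraries lay below WT, at 79.7 to 93.2 against 96.7 to 102.7 TPM. Gap43, a growth-associated protein of axons and Schwann cell precursors, averaged 25.7 ± 4.8 CPM in Grhl3KO and 25.2 ± 5.3 CPM in WT (SD, n = 3 each).

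Mbp encodes myelin basic protein, and a start far upstream of the myelin promoter gives the golli transcripts, which immune cells and young neurons also make. Mbp had 16.2, 14.95 and 17.3 CPM in Grhl3KO, against 11.5, 14.6 and 14.0 CPM in WT, with no overlap and a log2 fold change of 0.27 (edgeR FDR 0.759). The 4 annotated transcripts that begin at the upstream start took 96.17% to 98.14% of its estimated counts in Grhl3KO and 85.86% to 93.93% in WT. The 12 transcripts that begin further downstream, which include those of myelin, held 18.9, 13.2 and 36.4 estimated counts in Grhl3KO, against 61.8, 63.2 and 33.5 in WT. These counts are not scaled for depth, and Grhl3KO replicate 3 and WT replicate 3 overlapped. On the TPM scale the downstream transcripts had 0.259, 0.186 and 0.405 in Grhl3KO, against 0.888, 0.925 and 0.664 in WT, with no overlap. The gene-level value of Mbp is therefore mostly that of the upstream start. These shares rest on the division of reads between transcripts by kallisto, were read after their values were seen, and have no test.

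**Figure D2:**
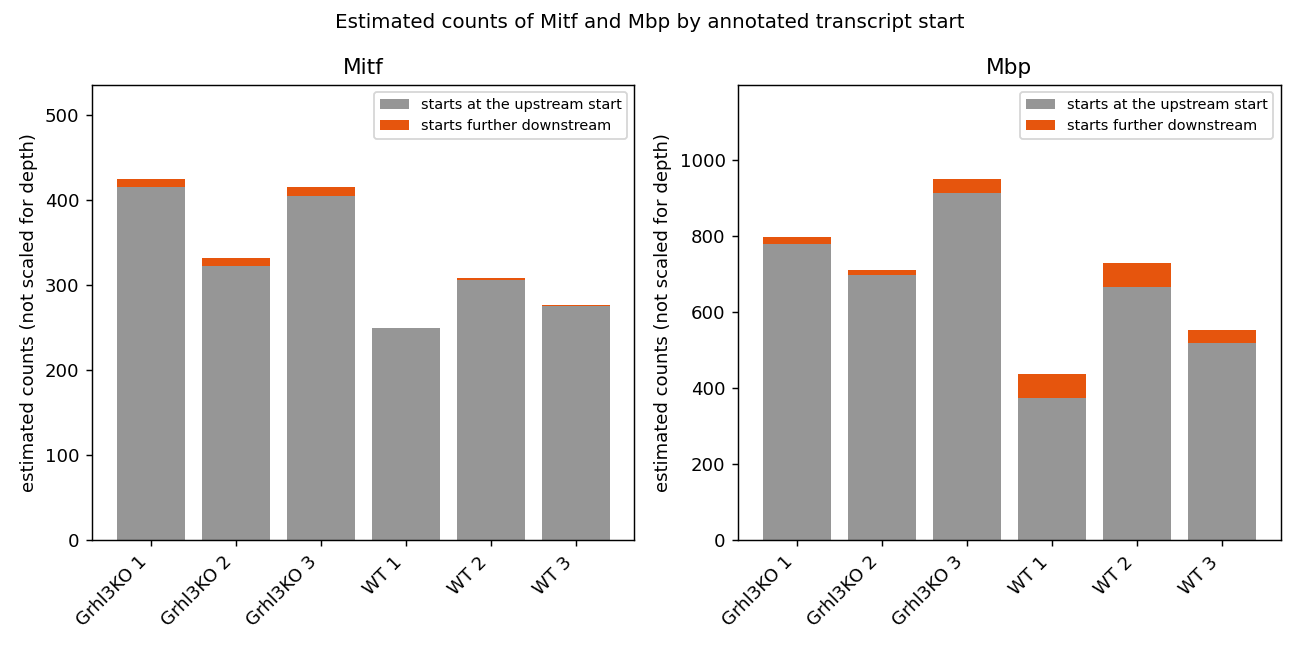
Estimated counts of Mitf and Mbp in each library, Grhl3KO at the left and WT at the right, split by whether the annotated transcript begins at the upstream start (grey) or further downstream (orange). Downstream counts were 9.6 to 11.3 in Grhl3KO and 0 to 2.4 in WT for Mitf, and 13.2 to 36.4 in Grhl3KO and 33.5 to 63.2 in WT for Mbp.

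Other glial genes gave 1 call. Of 26 further genes of glia, 23 were tested and 1 rose. Egr2, a transcription factor that drives Schwann cell myelination and is also made by other cell types, had 8.06, 3.81 and 5.55 CPM in Grhl3KO, against 1.85, 1.08 and 1.37 CPM in WT. Its log2 fold change was 2.02 ± 0.32 (SE, n = 3 libraries per group), with an edgeR FDR of 0.0478. The call was lost when Grhl3KO replicate 1 or 3, or WT replicate 2 or 3, was left out, with FDR of 0.147 to 0.271. It was also lost with limma-voom (FDR 0.0848), with effective length offsets (FDR 0.110) and with a filter of at least 1 CPM in 3 libraries (FDR 0.0513). Pou3f1, a factor of promyelinating Schwann cells that keratinocytes also make, had 2.42 to 3.11 CPM in Grhl3KO and 1.21 to 1.44 CPM in WT (log2 fold change 1.02, edgeR FDR 0.129). The median of the 23 genes was 0.13. At an unadjusted p under 0.05, 4 of the 23, Egr2 included, were higher in Grhl3KO and 0 were lower. Of all genes, 7.22% were at such a p.

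Pigment cell genes shared 1 sign, as did the blood genes (10 of 10 positive) and cartilage genes (10 of 10 negative) examined beside them. All 6 melanoblast genes tested had a positive log2 fold change, with a median of 0.62 and a range of 0.23 to 1.23, and 2 of them (Pmel and Kit) were at an unadjusted p under 0.05. The seventh, Tyrp1, did not pass the filter on low counts. The median was 0.35 without Grhl3KO replicate 1. With a filter of at least 1 CPM in 3 libraries only 4 of the 6 were tested, and these were positive. In the other alternatives all 6 were positive, except with effective length offsets, in which Tyr was at -0.47. Summed over the 7 genes, the level was 17.6, 15.5 and 15.95 TPM in Grhl3KO, against 11.02, 14.9 and 12.02 TPM in WT. Without Kit, which took 43.9% to 61.6% of each sum, it was 9.87, 6.67 and 7.25 TPM in Grhl3KO, against 4.23, 6.36 and 5.08 TPM in WT, again with no overlap. The gap between Grhl3KO replicate 2 and WT replicate 2 was the smallest in both sums.

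Pmel had the largest fold change of the members in the quasi-likelihood fit. Mlana, with far fewer counts, was above it with limma-voom, with effective length offsets, and without Grhl3KO replicate 1 or WT replicate 1. Pmel encodes the amyloid-forming protein on which melanin is laid down in melanosomes, and it lies at chr10:128704195-128720238 on the plus strand. Pmel had 4.14, 2.61 and 3.28 CPM in Grhl3KO, against 1.53, 1.38 and 1.37 CPM in WT, so the lowest Grhl3KO library was well above the highest WT library. The log2 fold change was 1.23 ± 0.23 (SE, n = 3 libraries per group, 95% interval 0.70 to 1.76), with an edgeR quasi-likelihood FDR of 0.0946. The likelihood ratio test of edgeR gave an FDR of 0.00279 and DESeq2 gave 0.000915 on the same counts. Over the 15 alternatives the log2 fold change of Pmel ranged from 0.93 to 1.37 and the FDR from 0.000915 to 0.775. In the authors' deposited table, Pmel had a log2 fold change of 1.23 and an FDR of 0.00274.

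The count and TPM scales differed for Pmel. Summed over its 3 annotated transcripts, Pmel had 3.99, 2.03 and 2.31 TPM in Grhl3KO, against 0.92, 2.83 and 1.05 TPM in WT, where WT replicate 2 lay within the Grhl3KO values. In WT replicate 2 the short transcript Pmel-203 took 64.68% of the gene's TPM on 15.48 estimated counts. Pmel-203 also took 42.63% in Grhl3KO replicate 1 on 16.26 counts and 23.13% in Grhl3KO replicate 3 on 6.23 counts. In Grhl3KO replicate 2 another short transcript, Pmel-202, took 27.99% on 6.12 counts. The long transcript Pmel-201 alone had 187.74, 117.88 and 173.77 estimated counts in Grhl3KO, against 56.65, 50.38 and 52.67 in WT. On the TPM scale Pmel-201 was at 2.29, 1.46 and 1.77 in Grhl3KO, against 0.781, 0.675 and 0.879 in WT, with no overlap. Pmel is annotated as overlapping Cdk2 and Dgka on the opposite strand, and the strand setting used in counting is not given in the sources used here.

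**Figure D3:**
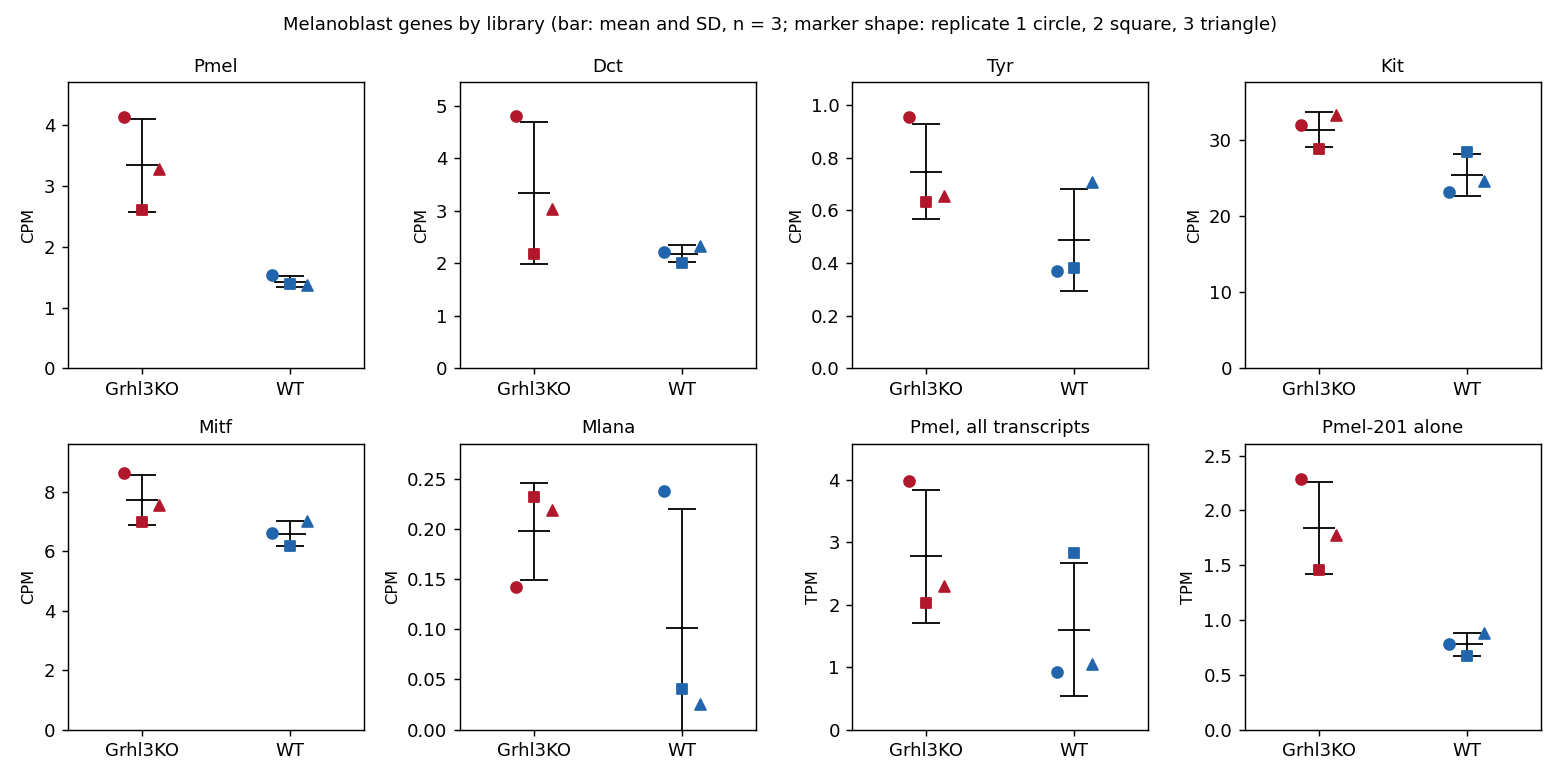
Melanoblast genes in each library, in CPM for 6 genes and in TPM for Pmel over all transcripts and for Pmel-201 alone, with Grhl3KO left of WT, and mean and SD of 3 libraries as bars. Pmel and Kit do not overlap in CPM, and Pmel overlaps in TPM only when the short transcripts are included.

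The enzymes of pigment synthesis were low. Dct, which encodes dopachrome tautomerase and is an early marker of melanoblasts, had 4.81, 2.17 and 3.04 CPM in Grhl3KO, against 2.22, 2.01 and 2.33 CPM in WT. Grhl3KO replicate 2 lay within the WT values, and the log2 fold change was 0.61 ± 0.29 (SE, n = 3 libraries per group), with an edgeR FDR of 0.755. Without Grhl3KO replicate 1 it was 0.26. Tyr, the rate-limiting enzyme of melanin synthesis, had 0.954, 0.632 and 0.655 CPM in Grhl3KO, against 0.370, 0.381 and 0.709 CPM in WT (log2 fold change 0.62, edgeR FDR 0.832). On these values WT replicate 3 overlapped Grhl3KO. On the TPM scale the order of the means of Tyr was the other way, 0.183 ± 0.045 TPM in Grhl3KO and 0.307 ± 0.234 TPM in WT (SD, n = 3 each). In WT replicates 2 and 3 the short transcript Tyr-203 took 86.7% and 59.57% of the gene's TPM on 1.73 and 0.6 estimated counts. Tyr-203 also took 51.5% in Grhl3KO replicate 2 on 0.52 counts. The long transcript Tyr-201 alone was at 0.1658, 0.1097 and 0.1002 TPM in Grhl3KO, against 0.0573, 0.0692 and 0.1394 TPM in WT. These overlapped at WT replicate 3. Tyrp1, which stabilises tyrosinase and whose promoter is shown above, had 5, 9 and 4 estimated counts in Grhl3KO, against 4, 9 and 1 in WT. Mlana, a melanosome protein, had 7, 11 and 12 estimated counts in Grhl3KO, against 9, 2 and 1 in WT, a log2 fold change of 1.02 with a 95% interval of -0.65 to 2.68. Without WT replicate 1 the log2 fold change of Mlana was 2.47, and Mlana was among the members at an unadjusted p under 0.05 (edgeR FDR 0.145). A difference in Tyrp1 was not detectable at this depth.

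Mitf had 8.63, 6.99 and 7.57 CPM in Grhl3KO, against 6.60, 6.18 and 7.01 CPM in WT, with overlap at Grhl3KO replicate 2 and WT replicate 3 (log2 fold change 0.23, edgeR FDR 0.872). The 3 annotated transcripts that begin at the upstream start took 97.09% to 97.75% of the estimated counts in Grhl3KO and 99.23% to 100% in WT. The upstream start is used in many cell types, whereas pigment cells use the downstream start whose promoter is printed above. The transcripts that begin further downstream held 9.6, 9.7 and 11.3 estimated counts in Grhl3KO, against 0, 2.4 and 1.3 in WT, all of them in Mitf-205 and Mitf-208, whose annotated starts are at chr6:97991819 and chr6:97991921. Mitf-205, annotated as a nonsense-mediated decay transcript, held those of Grhl3KO replicate 1. Mitf-208 held those of Grhl3KO replicates 2 and 3 and of WT. Mitf-201, a protein-coding transcript that begins at chr6:97991792 within the printed window, had 0 estimated counts in every library. The downstream counts of the groups did not overlap, but they are few, were read after their values were seen and have no test.

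Kit, the receptor for stem cell factor that melanoblasts need for migration and survival, had 31.9, 28.8 and 33.2 CPM in Grhl3KO, against 23.2, 28.4 and 24.6 CPM in WT. The lowest Grhl3KO library was just above the highest WT library, with a log2 fold change of 0.30 ± 0.11 (SE, n = 3 libraries per group) and an edgeR FDR of 0.561. The authors' deposited table gave Kit a log2 fold change of 0.30 and an FDR of 0.739. Mast cells also carry Kit, and the 11 mast cell genes summed to 192, 97.7 and 227 TPM in Grhl3KO, against 127, 127 and 129 TPM in WT. Of these 11, 10 were tested, 0 were called by edgeR and 3 were at an unadjusted p under 0.05. The median was 0.53 with 9 positive, and Fcer1a, named after its values were seen, was near 0 with 1 to 3 estimated counts per library. Kit in CPM and the mast cell sum in TPM had the same order among the Grhl3KO libraries, replicate 3 highest and replicate 2 lowest. On the TPM scale Kit did not have this order, with 7.72, 8.86 and 8.70 TPM in Grhl3KO and replicate 2 highest. These TPM values rest on the division of reads between transcripts. Kit-208, annotated with a retained intron, took 26.57%, 50.28% and 54.79% of them in Grhl3KO, against 72.46%, 24.91% and 39.81% in WT. Kit-205, another such transcript, took 11.33% in Grhl3KO replicate 2 on 19.93 estimated counts and 10.81% in WT replicate 2 on 16.7. In WT the order differed, with Kit highest in replicate 2 and the mast cell sum nearly level. The part of mast cells in the Kit value was not tested.

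Other pigment cell genes did not share 1 direction. Of 12 further melanoblast genes, 10 were tested, 0 were called by edgeR and 2 were at an unadjusted p under 0.05. They were 5 positive and 5 negative, with a median of 0.003. Gpnmb, a melanosome glycoprotein that macrophages also make, had 5.48, 3.56 and 3.33 CPM in Grhl3KO, against 2.48, 2.51 and 1.57 CPM in WT (log2 fold change 0.91, edgeR FDR 0.389). Mreg, which acts in melanosome transfer, had a log2 fold change of 0.61, and Slc45a2, a melanosome transporter, had 1.02, both with no overlap between groups and with edgeR FDR of 0.541 and 0.701. Slc24a5, another melanosome exchanger, was at -0.30 with overlapping groups.

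**Figure D4:**
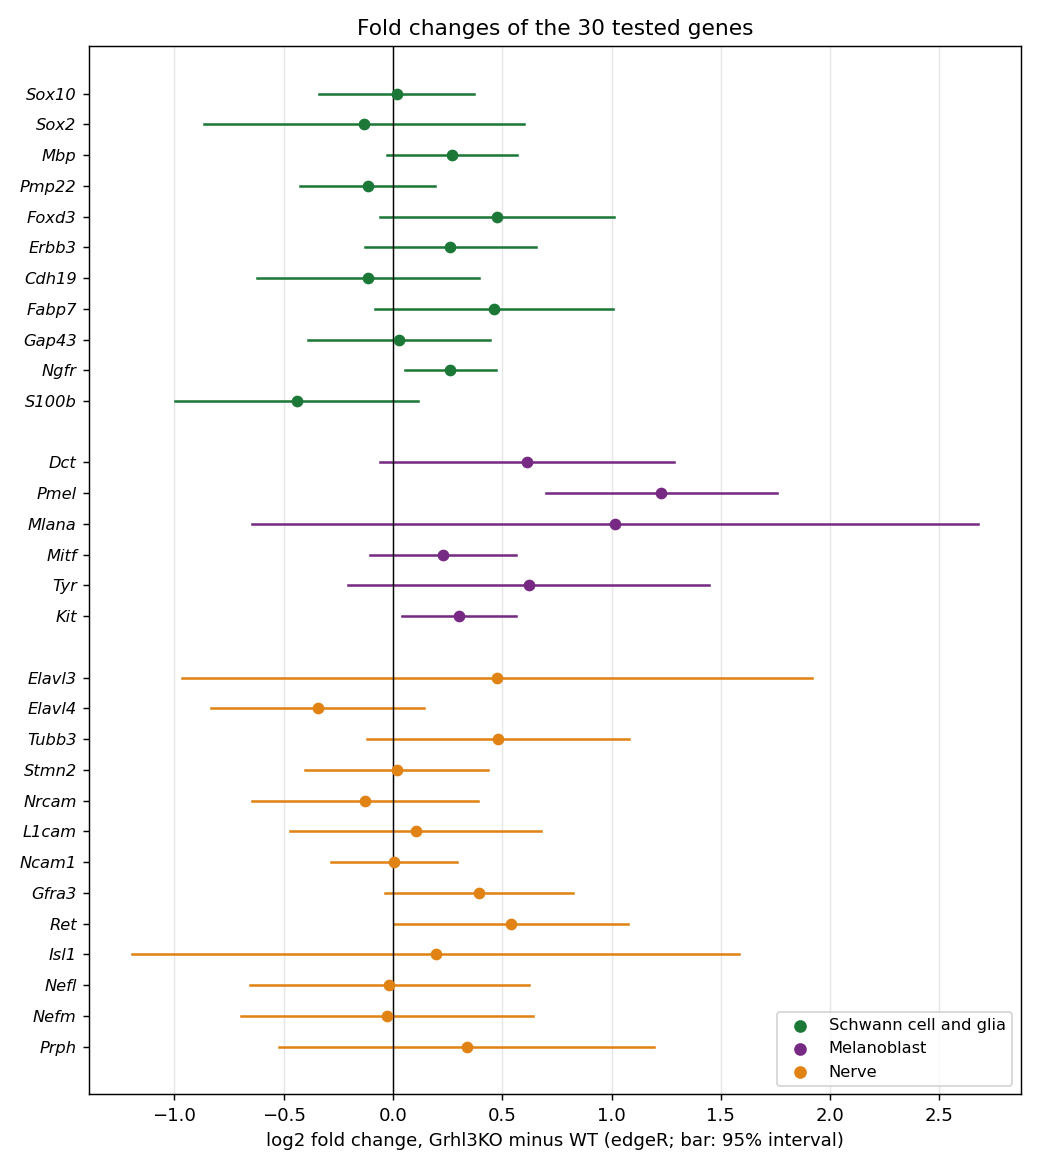
Log2 fold changes of the 30 tested genes, Grhl3KO minus WT, from the edgeR fit, with bars for 95% intervals and colours for cell type of origin. All 6 melanoblast genes lie to the right of 0, while the glial and nerve genes lie on both sides, and the intervals of Pmel, Kit, Ngfr and Ret do not reach 0.

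Nerve genes as a group lay near their WT levels. The 13 nerve genes had a median log2 fold change of 0.10, with 9 positive and 4 negative, and 1 (Ret) was at an unadjusted p under 0.05. Their summed level was 56.4, 55.3 and 67.6 TPM in Grhl3KO, against 54.4, 72.1 and 55.9 TPM in WT. Ncam1, a cell adhesion molecule that muscle and mesenchyme also make, was the most abundant at 107, 125 and 135 CPM in Grhl3KO, against 135, 125 and 105 CPM in WT. Its log2 fold change was 0.01 with a 95% interval of -0.28 to 0.29.

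The neurotrophic factor receptors among them were higher in Grhl3KO by values that did not pass the test. Ret, the signalling receptor of the GDNF family, had 1.91, 1.69 and 2.53 CPM in Grhl3KO, against 1.43, 1.46 and 1.32 CPM in WT, with no overlap. Its log2 fold change was 0.54 ± 0.23 (SE, n = 3 libraries per group), with an edgeR FDR of 0.685. Gfra3, the co-receptor that binds artemin and works with RET in sensory neurons and glial precursors, had 6.27, 7.29 and 8.66 CPM in Grhl3KO, against 6.39, 5.94 and 4.61 CPM in WT (log2 fold change 0.39, edgeR FDR 0.755). WT replicate 1 was the only WT library within the Grhl3KO range.

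Neurofilament genes varied more among Grhl3KO libraries than between groups. Nefl, the light chain, had 15.97, 9.16 and 21.0 CPM in Grhl3KO, against 18.3, 16.1 and 12.3 CPM in WT. Nefm, the medium chain, had 20.8, 11.4 and 27.9 CPM in Grhl3KO, against 18.4, 25.1 and 17.8 CPM in WT. Prph, the intermediate filament of peripheral neurons, had 2.72, 1.43 and 4.26 CPM in Grhl3KO, against 2.80, 2.01 and 1.87 CPM in WT. All 3 genes had the same order in Grhl3KO, with replicate 3 highest and replicate 2 lowest, which is also the order of the mast cell sum. Their log2 fold changes were -0.02, -0.03 and 0.34. Nefl and Nefm are annotated as overlapping on opposite strands, so their reads may be divided imperfectly.

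Genes of neuronal identity had mixed values. Elavl4, a neuronal RNA-binding protein, had 1.81, 1.43 and 1.62 CPM in Grhl3KO, against 1.90, 1.95 and 2.33 CPM in WT. It was the only member whose Grhl3KO libraries all lay below WT in CPM (log2 fold change -0.34, edgeR FDR 0.858). In TPM the groups of Elavl4 overlapped, at 0.504 to 1.04 in Grhl3KO and 0.757 to 1.47 in WT. Its relative Elavl3 had 0.122, 0.569 and 0.746 CPM in Grhl3KO, against 0.159, 0.481 and 0.380 CPM in WT, which overlapped. Tubb3, the neuronal beta-tubulin, had 3.27, 5.33 and 3.57 CPM in Grhl3KO, against 3.22, 3.35 and 2.13 CPM in WT (log2 fold change 0.48, edgeR FDR 0.799). Stmn2, a microtubule regulator of growing axons, averaged 12.2 ± 0.5 CPM in Grhl3KO and 12.1 ± 3.2 CPM in WT (SD, n = 3 each). The adhesion molecules Nrcam and L1cam had log2 fold changes of -0.13 and 0.10. Elavl3, Tubb3 and L1cam each overlap another annotated protein-coding gene on the same strand, so their reads may be shared with it. Isl1, a transcription factor of sensory and motor neurons, had 0.102 to 0.400 CPM in Grhl3KO and 0.127 to 0.421 CPM in WT.

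Of 39 further nerve genes, 30 were tested and 0 were called by edgeR, with 1 higher and 2 lower at an unadjusted p under 0.05 and a median of 0.03. Scn9a, a sodium channel of pain fibres, had 0.670, 0.906 and 0.710 CPM in Grhl3KO, against 1.14, 1.22 and 1.72 CPM in WT (log2 fold change -0.83, edgeR FDR 0.457). Syt1, a synaptic vesicle protein, had 4.40, 4.28 and 4.90 CPM in Grhl3KO, against 2.56, 3.93 and 3.34 CPM in WT (log2 fold change 0.46, edgeR FDR 0.686). Transcription factors of neuronal cell bodies had few counts. Tlx3 had 1, 3 and 3 estimated counts in Grhl3KO, against 0, 1 and 1 in WT, and Neurog1 had 0, 3 and 1 in Grhl3KO, against 0 in each WT library. These factors were named after their values were seen, as a check of the nerve label. Pou4f1, a further sensory neuron factor, was higher than these at 0.325 to 0.364 CPM in Grhl3KO and 0.211 to 0.522 CPM in WT.

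Merkel cells could not be followed through their defining gene. Atoh1 had 1, 2 and 8 estimated counts in Grhl3KO, against 0, 3 and 2 in WT, which is 11 against 5 in all, and it did not pass the filter on low counts. Pou4f3, another transcription factor of Merkel cells, named after its values were seen, had 4, 2 and 7 estimated counts in Grhl3KO, against 0, 2 and 1 in WT. Of 20 genes listed for Merkel cells, among them the members Tubb3, Sox2 and Isl1, 19 were tested, 2 rose and 4 were at an unadjusted p under 0.05, all higher in Grhl3KO. Krt8, a keratin of simple epithelia, periderm and Merkel cells, had 82.0, 48.3 and 57.8 CPM in Grhl3KO, against 8.003, 6.96 and 8.70 CPM in WT, a log2 fold change of 2.99 ± 0.20 (SE, n = 3 libraries per group) with an edgeR FDR of 0.00237. Krt18, its partner keratin, had 37.3, 24.2 and 30.5 CPM in Grhl3KO, against 10.4, 7.50 and 7.16 CPM in WT, a log2 fold change of 1.88 ± 0.20 (SE, n = 3 libraries per group) with an edgeR FDR of 0.00961. The call of Krt18 was lost without Grhl3KO replicate 1 or 3 or WT replicate 3, at FDR of 0.0501 to 0.0806. Krt20, a keratin of Merkel cells and gut, was at 1.84 on the log2 scale (edgeR FDR 0.269). The median over the 19 genes was 0.10, with 11 positive and 8 negative.

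The values of epithelial genes stand beside those of these keratins. Of 10 epithelial genes, 1 rose, 7 were at an unadjusted p under 0.05 and higher in Grhl3KO, 9 had positive fold changes and the median was 0.74, and their summed level was 2226, 1589 and 2026 TPM in Grhl3KO, against 783, 1550 and 926 TPM in WT. Cldn7, a tight junction claudin, was the gene called, with a log2 fold change of 1.27 (edgeR FDR 0.0337). That call was lost when any library other than WT replicate 1 was left out, with FDR of 0.0816 to 0.190, and with effective length offsets, with an edgeR FDR of 0.248. The part of epithelium in the keratin values and in the other members was not tested. Endothelial, mesenchymal and skeletal muscle genes had medians of 0.20, 0.02 and -0.04, and blood genes had a median of 0.33. In each of these 4 lists 0 were called by edgeR, with 2 endothelial, 0 mesenchymal, 0 muscle and 2 blood genes at an unadjusted p under 0.05.

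**Figure D5:**
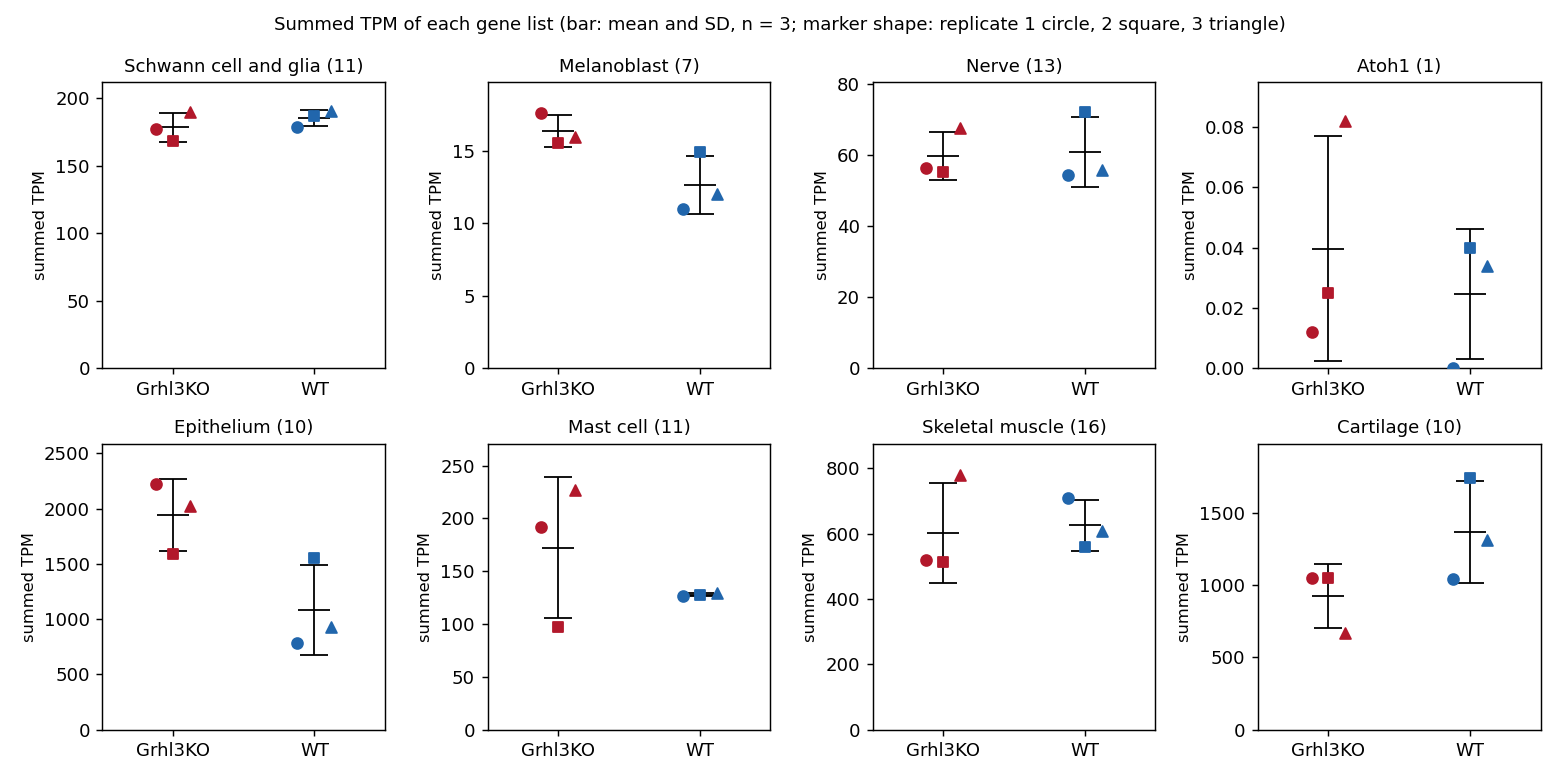
Summed TPM of the glial, melanoblast and nerve genes, of Atoh1 and of 4 lists for other cell types, in each library, with Grhl3KO left of WT, and mean and SD of 3 libraries as bars. The melanoblast and epithelial sums of the Grhl3KO libraries lie above those of WT, and the glial and nerve sums overlap.

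Signals that nerves, glia and melanoblasts receive gave 1 call. Of 26 such ligand genes, 24 were tested, 1 rose and the median was 0.02. At an unadjusted p under 0.05, 2 of the 24, the called gene included, were higher in Grhl3KO and 0 were lower. Edn1 encodes endothelin 1, a peptide of endothelium and keratinocytes that acts on melanocytes through endothelin receptors. It had 12.6, 8.21 and 9.64 CPM in Grhl3KO, against 3.09, 3.65 and 2.99 CPM in WT, a log2 fold change of 1.65 ± 0.20 (SE, n = 3 libraries per group) with an edgeR FDR of 0.0156. The call was lost without Grhl3KO replicate 1 or 3 or WT replicate 3, at FDR of 0.0673 to 0.133. Nrg2, a neuregulin, had 1.58, 1.52 and 1.46 CPM in Grhl3KO, against 1.19, 0.762 and 0.633 CPM in WT (log2 fold change 0.82, edgeR FDR 0.493). Artn, the ligand that GFRA3 binds, had a log2 fold change of 0.33, and Kitl, the ligand of KIT, named after its values were seen, had 73.0, 51.8 and 68.1 CPM in Grhl3KO, against 60.3, 61.7 and 71.5 CPM in WT. Ednrb, the endothelin receptor of melanoblasts and glial precursors, had 27.7 to 31.1 CPM in Grhl3KO and 24.4 to 26.2 CPM in WT (log2 fold change 0.23, edgeR FDR 0.647).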

How the data were processed

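RNA libraries were made with a stranded mRNA kit, per the labels' protocols. Per the submitters' processing notes, FastQC and kallisto were used with genome build mm10; which kallisto version, strand setting and transcripts were used is not given in the sources used here. The authors' transcript tables give, per the file headers, lengths, the estimated count and the TPM of 111462 transcripts. The authors' deposited table gives for 941 genes a log2 fold change, a p-value, an FDR and a score (the likelihood ratio); its header does not state the direction, and its sign was that of Grhl3KO minus WT for 99.89% of 928 shared genes.

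Transcripts were matched to GENCODE mouse genes by unversioned identifiers. The 1259 unmatched transcripts held 0.504% to 0.566% of a library's counts and were left out. Estimated counts were summed per gene and rounded, scaled by TMM, filtered by filterByExpr (minimum count 10, total 15) and tested with edgeR 4.0.16 in R 4.3.3 (glmQLFit, glmQLFTest; genotype as the only term; Benjamini-Hochberg adjustment over all genes tested). TPM was summed per gene with no test. limma 3.58.1 (voom) and DESeq2 1.42.0 served as alternatives. The fit was tested on simulated data. Intervals are 95% and cover the spread between libraries. The named genes are the 32 members, Grhl3, and up to 4 genes with the smallest p-values in each other list, others carry a remark that they were picked later. Members and lists were chosen with earlier results of these data known.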

Additional observations from a re-analysis of the deposited data

How the results depend on the processing

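The count of all genes called moved with the tool: 73 with the quasi-likelihood test, 118 with no filter on low counts, 299 with DESeq2, 260 with the likelihood ratio test, 45 with limma-voom, 45 with effective length offsets, 113 at an FDR under 0.1, and 10 to 206 when 1 library was left out (206 without WT replicate 1). Members called stayed at 0, except for 1 (Pmel) with DESeq2, with the likelihood ratio test and at an FDR under 0.1. With a replicate block, 47 genes and 0 members were called, and Edn1 (FDR 0.0593) and Cldn7 (FDR 0.0808) were no longer called. The numbers did not pair the libraries: deviations of same-numbered libraries correlated at -0.333, -0.102 and -0.231, and 0 of 6 libraries correlated best with their own number. Leaving out 1 library gave a median of 0.018 to 0.310 for all members (0.018 without Grhl3KO replicate 3), 0.348 to 0.782 for melanoblast genes, -0.085 to 0.155 for glial genes and -0.069 to 0.269 for nerve genes. With 1 library left out of a group of 3, members at an unadjusted p under 0.05 and higher in Grhl3KO numbered 1 to 6, the 6 without WT replicate 1. No called gene named in the text changed direction in any alternative. The median of all genes lay between -0.015 and 0.004. The cause of these differences was not tested. Depth limits Atoh1, Tyrp1 and Mlana, each with 30 or fewer estimated counts per group.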
